A study of Homo sapiens with 8 samples.

Results

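Expression of 7 genes of mitosis was followed clone by clone in PC-3, a human prostate cancer line that grows without androgen. The genes were the kinases AURKA, AURKB, PLK1, BUB1 and TTK, the kinase-like checkpoint protein BUB1B, and BIRC5, which encodes survivin. They are 7 of the 14884 genes with a single symbol in the annotation of the array, and each was read by 1 probe set. The set was put together with the comparison of RWDD4 with control clones already known, in which AURKA, BUB1, BUB1B and TTK were clearly higher and AURKB, PLK1 and BIRC5 were not. The differences of these 7 genes are therefore given as a description, without p-values. How many of them passed the fit over all genes is stated only as a count, which is no independent support because the same comparison chose them. The smallest difference among the 4 higher genes was 1.17 on the log2 scale (AURKA) and the largest among the 3 flat genes was 0.45 (PLK1). That margin reflects which genes were chosen, since related genes lay between, such as CDC20 (0.56), PTTG1 (0.88) and SGO2 (0.96).

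The study measured total RNA of 8 clonal isolates, 1 Affymetrix array per clone. The 4 RWDD4 clones (17, 24, 5 and 6) carried a p-Lenti vector with the RWDD4 gene, named for its RWD domain, and the 4 control clones (2, 3, 4 and 5) carried the same vector without it. All 8 had gone through drug selection (spelled blastocydin in the record), and no other agent or time point was described. Each clone descends from selected cells of its own, so the spread within a group is the spread between clones, and no clone was measured more than once. The promoter that drives RWDD4 in the vector is not given in the sources used here.

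The mitotic kinases act in a relay. AURKA, with its activators, matures the centrosomes and builds the spindle poles, and PLK1 drives entry into mitosis, spindle assembly and cytokinesis. TTK, also called MPS1, starts the spindle assembly checkpoint at kinetochores without microtubules, where BUB1 and BUB1B (BUBR1) are recruited, and BUB1B helps to hold back the anaphase-promoting complex. AURKB works in the chromosomal passenger complex with BIRC5, INCENP and CDCA8 (borealin), and that complex corrects faulty attachments of chromosomes and later guides cytokinesis. Transcripts of these genes accumulate late in the cell cycle, under the DREAM and MuvB complexes, MYBL2 and FOXM1, and a short promoter element, the cell cycle genes homology region (CHR), is known to take part.

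Values were log2 expression values after RMA, which compare a gene between arrays and not 1 gene with another. RWDD4 itself averaged 10.30 ± 0.29 where it was introduced and 7.36 ± 0.58 with the empty vector (SD, n = 4 each), a difference of 2.94 (SE 0.25). The exact two-sided permutation test gave p = 0.0286, its lower limit with 70 relabellings. Array medians over all 53617 probe sets were 4.888 to 4.899 with RWDD4 and 4.92 to 4.96 without, and the SDs over probe sets were 2.19 to 2.21 and 2.10 to 2.15, so both separated the groups. Of the epithelial markers 4 of 5 were measured (CDH1 was not analysed here), at 6.15 to 11.20, and 3 of them fell in the RWDD4 clones, with summed levels of 11.43 to 11.75 against 11.84 to 12.19. The luminal genes KLK3 and KLK2 lay at 5.49 to 6.10, and the measured stromal markers at 2.62 to 3.19. Of the blood markers 1 of 3 was analysed, CD14, at 3.93 to 4.83, below the median of all values (4.92). It fell, as did VWF, 1 of the 2 endothelial markers, which lay at 4.48 to 5.76. VWF itself lay around that median, at 4.48 to 5.06, so both falls were among dim values. Summed over each list, the blood marker ranged from 3.93 to 4.20 in RWDD4 and from 4.32 to 4.83 in control clones, and the endothelial markers from 5.96 to 6.22 and from 6.11 to 6.46. The part of these array and marker differences in the results that follow was not tested.

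The RefSeq promoter table (GRCh38.p14) held BUB1, BUB1B, AURKB and PLK1. Their sequences are shown because they set 2 higher genes beside 2 flat ones, over the 160 bases before and 10 bases after the annotated start. Capitals mark CHR matches (TTTGAA or TTCGAA) and CCAAT boxes (CCAAT), searched on both strands, so that ATTGG is a CCAAT box on the opposite strand. The windows were chr2:110678054-110678223 (minus strand), chr15:40160909-40161078 (plus strand), chr17:8210216-8210385 (minus strand) and chr16:23678729-23678898 (plus strand). AURKB had 2 entries, of which the one listed earlier is shown.
BUB1: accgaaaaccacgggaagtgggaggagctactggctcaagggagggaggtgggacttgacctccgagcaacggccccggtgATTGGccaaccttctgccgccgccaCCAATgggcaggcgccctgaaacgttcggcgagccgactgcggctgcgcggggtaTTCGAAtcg
BUB1B: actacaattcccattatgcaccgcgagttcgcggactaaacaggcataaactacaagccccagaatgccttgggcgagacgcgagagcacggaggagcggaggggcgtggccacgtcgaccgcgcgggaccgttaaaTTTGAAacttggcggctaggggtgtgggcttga
AURKB: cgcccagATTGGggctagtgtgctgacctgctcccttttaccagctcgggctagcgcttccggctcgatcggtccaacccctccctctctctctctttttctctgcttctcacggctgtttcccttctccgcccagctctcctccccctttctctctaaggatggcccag
PLK1: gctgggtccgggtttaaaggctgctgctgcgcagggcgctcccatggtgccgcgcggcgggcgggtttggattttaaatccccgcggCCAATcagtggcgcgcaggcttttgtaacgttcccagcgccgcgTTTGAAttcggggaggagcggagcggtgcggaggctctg
PLK1 and BUB1B, a flat and a higher gene, both held TTTGAA just before the start, beginning at base -29 in PLK1 and at base -23 in BUB1B. BUB1 held TTCGAA at base 2 after the start, and CCAAT boxes at bases -79 and -54. PLK1 held a CCAAT box at base -73 and AURKB one at base -153. No CHR letters were found in the AURKB window and no CCAAT letters in the BUB1B window. The other AURKB entry was not searched, so an AURKB promoter without a CHR is not shown. Over 300-base promoters (250 bases before to 50 after the start) of 27305 genes, 16.6% held a CHR match and 35.7% a CCAAT box. A match is a run of letters and was not tested for binding.

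BUB1, the checkpoint kinase that marks inner centromeres, had the widest gap between the groups of the 7 genes. Its log2 values were 9.77, 9.43, 9.86 and 9.85 in RWDD4 clones 17, 24, 5 and 6, and 6.63, 7.40, 7.82 and 7.96 in control clones 2, 3, 4 and 5. The lowest RWDD4 clone lay 1.47 above the highest control clone. The means were 9.73 ± 0.20 and 7.45 ± 0.60 (SD, n = 4 each), a difference of 2.27 (SE 0.25) or 4.83-fold.

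TTK, the kinase at the head of the checkpoint, had the largest difference of the 7 genes and was the most uneven among the RWDD4 clones. It measured 7.42, 8.03, 8.71 and 8.08 in RWDD4 clones 17, 24, 5 and 6, and 5.11, 5.82, 5.94 and 6.11 in control clones 2, 3, 4 and 5. The groups did not overlap, although RWDD4 clones 17 and 5 stood 1.29 apart. The means were 8.06 ± 0.53 and 5.74 ± 0.44 (SD, n = 4 each), a difference of 2.32 (SE 0.27) or 4.99-fold.

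BUB1B, which joins the mitotic checkpoint complex, differed less than its partner BUB1. It lay at 8.59, 8.42, 8.58 and 8.25 in RWDD4 clones 17, 24, 5 and 6, and at 6.74, 7.38, 7.37 and 7.20 in control clones 2, 3, 4 and 5. Control clone 2 was the low one, and no RWDD4 clone came within 0.87 of a control clone. The difference of the means, 8.46 ± 0.16 and 7.17 ± 0.30 (SD, n = 4 each), was 1.29 (SE 0.15) or 2.44-fold.

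AURKA, the spindle pole kinase, was also higher in all RWDD4 clones, with the narrowest separation of the 4. Its values were 9.16, 9.04, 9.32 and 9.37 in RWDD4 clones 17, 24, 5 and 6, and 7.68, 7.69, 8.09 and 8.75 in control clones 2, 3, 4 and 5. Control clone 5 was only 0.30 below RWDD4 clone 24, while control clones 2 and 3 were much lower. The means were 9.22 ± 0.15 and 8.05 ± 0.50 (SD, n = 4 each), a difference of 1.17 (SE 0.21) or 2.25-fold.

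**Figure D1:**
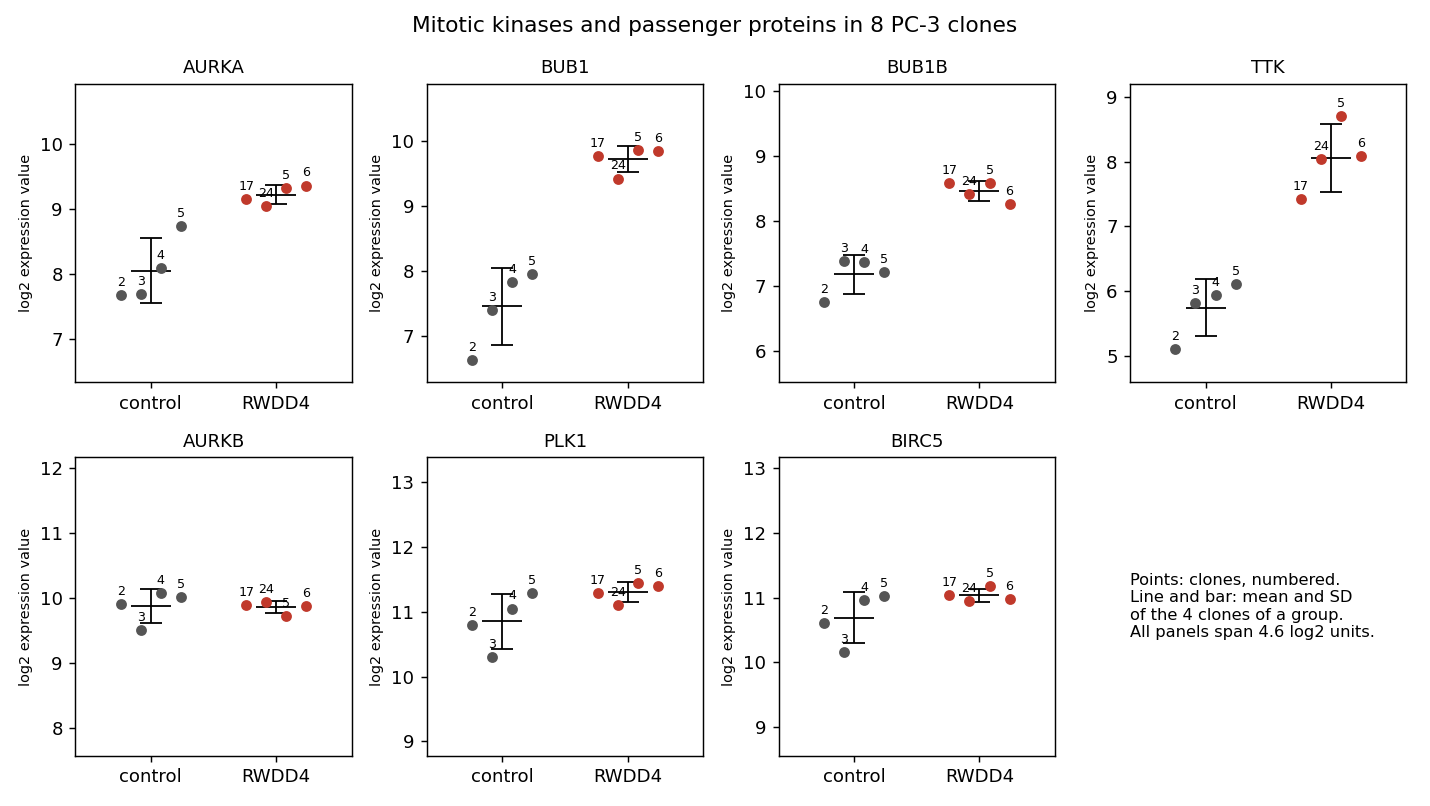
Log2 expression values of the 7 genes in 4 control and 4 RWDD4 clones; points are clones with their numbers, the horizontal line and bar are the mean and SD. The groups do not overlap for AURKA, BUB1, BUB1B and TTK, and they overlap for AURKB, PLK1 and BIRC5, whose lowest control clone is clone 3.

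AURKB, the kinase of the passenger complex, was at the same level in both groups within the spread of the clones. It measured 9.90, 9.95, 9.72 and 9.88 in RWDD4 clones 17, 24, 5 and 6, and 9.91, 9.51, 10.09 and 10.02 in control clones 2, 3, 4 and 5. The RWDD4 clones lay inside the range of the control clones. The means were 9.86 ± 0.10 and 9.88 ± 0.26 (SD, n = 4 each), and the difference was -0.02 (SE 0.13), which became 0.03 after median centring and -0.14 after quantile normalization.

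PLK1, the kinase of mitotic entry, was slightly higher on average, but with overlap. Its values were 11.29, 11.10, 11.44 and 11.40 in RWDD4 clones 17, 24, 5 and 6, and 10.79, 10.30, 11.05 and 11.29 in control clones 2, 3, 4 and 5. Control clone 5 reached the level of RWDD4 clone 17, and control clone 3 was far below the rest. The difference of the means, 11.31 ± 0.15 and 10.86 ± 0.42 (SD, n = 4 each), was 0.45 (SE 0.19) or 1.37-fold.

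BIRC5, survivin, which anchors AURKB to the inner centromere, followed PLK1. It lay at 11.04, 10.95, 11.18 and 10.98 in RWDD4 clones 17, 24, 5 and 6, and at 10.62, 10.17, 10.96 and 11.02 in control clones 2, 3, 4 and 5. Control clones 4 and 5 were level with the RWDD4 clones. The means were 11.04 ± 0.10 and 10.69 ± 0.39 (SD, n = 4 each), a difference of 0.35 (SE 0.17) or 1.27-fold.

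Ordered by difference, the genes formed neighbouring pairs that did not part beyond 1 SE: TTK with BUB1, BUB1B with AURKA, and PLK1 with BIRC5, with AURKB below them. In the limma fit over all genes, 4 of the 7 passed an adjusted p under 0.05 (Benjamini-Hochberg), all higher in the RWDD4 clones, and the same 4 did not overlap between the groups. Of all genes 46.7% passed in either direction, 25.1% passed as higher, 44.8% did not overlap in either direction, and 23.7% were higher without overlap. Since the genes were chosen on this comparison, nothing is read from these counts. The flat genes still varied, as PLK1 ranged over 0.99 and BIRC5 over 0.85 among the control clones alone. In bulk RNA of a culture, a changed share of cells in mitosis and a changed amount of RNA per cell cannot be told apart.

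The 2 sets of genes had different low clones in the control group. When each gene's control mean was subtracted and the 4 higher genes were averaged, control clones 2, 3, 4 and 5 stood at -0.57, -0.03, 0.20 and 0.40, and RWDD4 clones 17, 24, 5 and 6 at 1.63, 1.63, 2.01 and 1.78. The same average over AURKB, PLK1 and BIRC5 was -0.04, -0.49, 0.22 and 0.30 for the same control clones, and 0.27, 0.19, 0.30 and 0.28 for the same RWDD4 clones. Control clone 2 was thus lowest for all 4 higher genes, with AURKA nearly as low in clone 3, and control clone 3 was lowest for all 3 flat ones. In the flat set, control clones 4 and 5 lay as high as the RWDD4 clones.

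**Figure D2:**
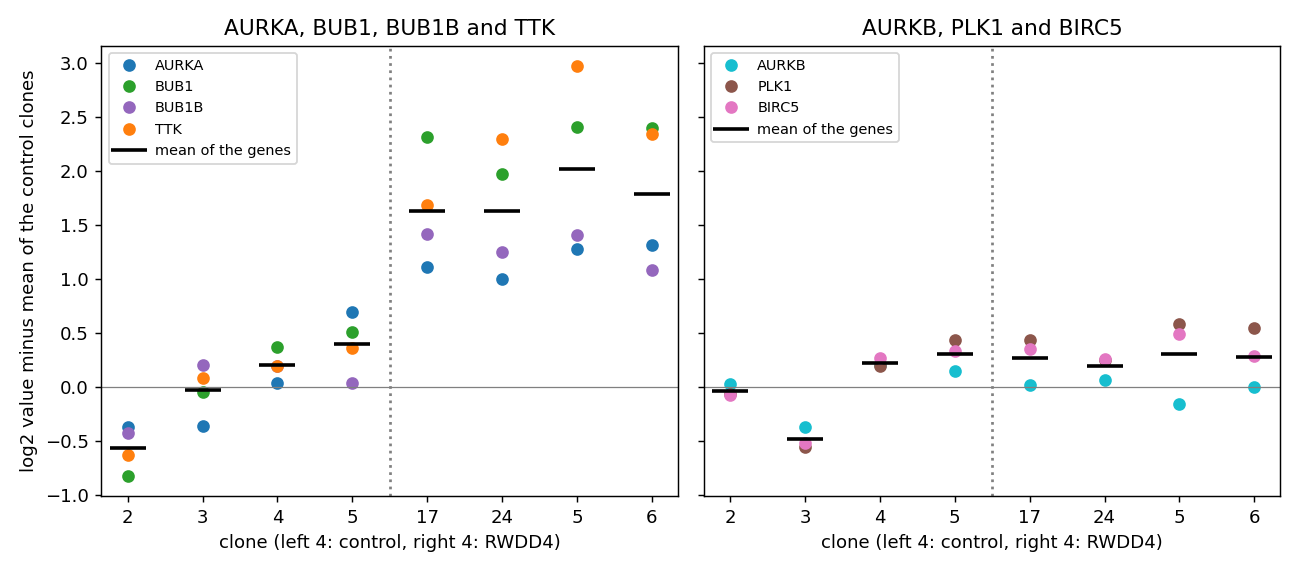
Log2 value of each gene minus its mean in the 4 control clones, by clone, for AURKA, BUB1, BUB1B and TTK (left) and for AURKB, PLK1 and BIRC5 (right); black bars are the mean over the genes of a panel. The higher genes reach 1.63 to 2.01 on average in the RWDD4 clones, and the flat genes 0.19 to 0.30, level with control clones 4 and 5.

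The gap between the 2 averages was 1.36, 1.44, 1.71 and 1.51 in RWDD4 clones 17, 24, 5 and 6, and -0.53, 0.45, -0.02 and 0.10 in control clones 2, 3, 4 and 5. A gap in the RWDD4 clones follows from how the genes were sorted and is given for its size by clone. Its group means were 1.503 ± 0.149 and 0 ± 0.406 (SD, n = 4 each), where the control mean is 0 by construction. RWDD4 clone 6, with the lowest RWDD4 level of its group at 9.87, had the highest AURKA value and the lowest BUB1B value.

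Control clone 3 weighed on the flat genes. Without it their mean difference was 0.10, against 0.26 with all clones, and the differences of PLK1, BIRC5 and AURKB were 0.27, 0.17 and -0.15. Without control clone 2 the mean difference of the 4 higher genes was 1.57, against 1.76, and BUB1 and BUB1B were at 2.00 and 1.14. Without control clone 5 PLK1 lay at 0.60 and passed, which made 5 of the 7.

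Control clone 2 was the lowest control for more of the related genes than control clone 3. Over 91 other genes of mitosis, described in turn here, clone 2 was lowest for 56 (61.5%, against 35.7% of all genes) and clone 3 for 15 (16.5%, against 23.1%). The share for clone 3 was thus below that of all genes. Those 15 were INCENP, CDCA8, FOXM1, MYBL2, CDC20, CCNB2, CDC25B, CKS2, PTTG1, ESPL1, MAD1L1, AJUBA, NEK7, ANAPC4 and ANAPC15.

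The profile of PLK1 over the 8 arrays was closest to those of CDCA8, BIRC5 and FOXM1 among 13013 other genes. Closeness was the root mean square difference of log2 values after each gene's mean was subtracted, and it was 0.10 for CDCA8, 0.10 for BIRC5 and 0.11 for FOXM1. INCENP came at rank 4 (0.12) and CDC20 at rank 5 (0.14). The measure includes the difference between the groups, by which the 7 genes were sorted, so likeness within a set is partly built in. BIRC5 in turn had PLK1 closest (0.10), then SYBU (syntabulin, a kinesin adaptor) and ANAPC15, a subunit of the anaphase-promoting complex. AURKB ranked 378 among the genes nearest to BIRC5 (0.24) and 1073 among those nearest to PLK1 (0.30). Seen from AURKB, BIRC5 ranked 4620 and PLK1 7505. Genes nearest to AURKB were PCK1, GGACT and STARD13-AS, with ranges of 0.48 to 0.57 over the 8 arrays. Their means were low, at 4.68, 5.48 and 4.84, where the median of all values was 4.92. With 8 arrays such ranks describe these clones only.

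The higher genes had other neighbours. AURKA was closest to MIB1, KNSTRN and GREB1L (0.11 to 0.14), of which KNSTRN encodes a kinetochore and spindle protein. Nearest to BUB1 were DHX15, TNPO1 and ARHGAP11A (0.13 to 0.14), and nearest to BUB1B were SMU1, MSH6 and IPP (0.07 to 0.09). TTK was closest to GEN1, SMC6 and FASTKD2 (0.22 to 0.25).

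**Figure D3:**
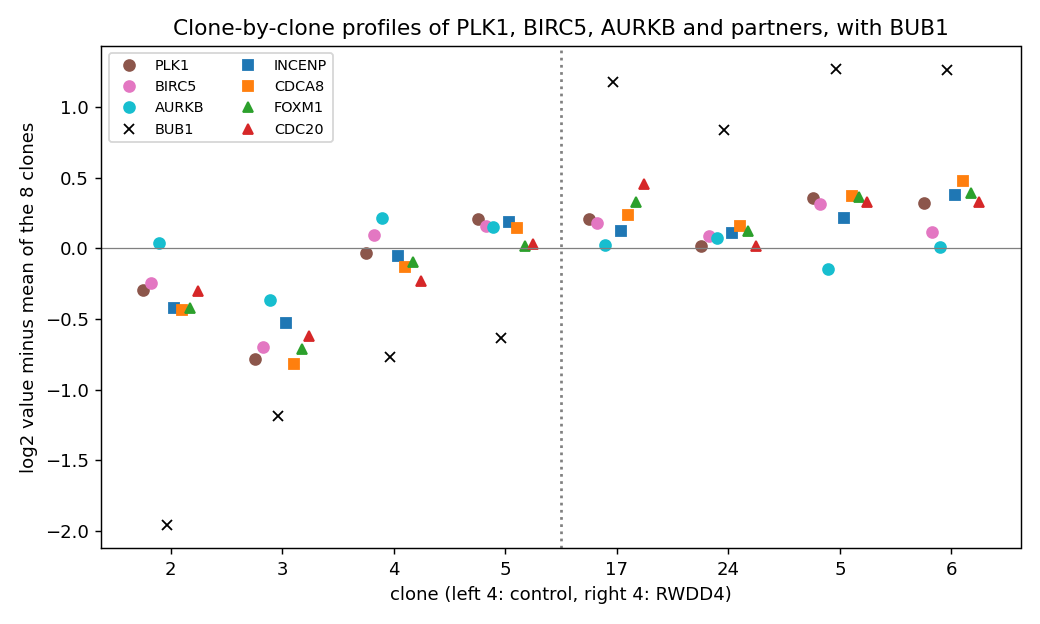
Log2 value minus the mean of the 8 clones for PLK1, BIRC5, AURKB, the passenger partners INCENP and CDCA8, FOXM1, CDC20 and, for contrast, BUB1, by clone. All but BUB1 are lowest in control clone 3, and BUB1 is lowest in control clone 2 and 2.27 higher on average in the RWDD4 clones.

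The passenger complex was read through 9 further genes, its subunits and anchors. In the limma fit with Benjamini-Hochberg adjustment over all genes, 6 rose and none fell (median difference 0.62, against -0.08 over all genes). Of all genes 25.1% rose and 21.6% fell, and the counts of this list and those below stand beside these shares. The shugoshins SGO1 and SGO2, which protect centromeric cohesion, rose by 2.35 and 0.96, and KIF20A, the kinesin that carries the complex to the midzone, by 1.78. SGO2 was dim, with means of 5.32 in RWDD4 and 4.37 in control clones, where the median of all values was 4.92. Among genes above the median level, which left SGO2 out, 5 of 8 rose. CDCA8 rose by 0.62 (SE 0.18), from 9.50, 9.12, 9.81 and 10.08 in control clones 2, 3, 4 and 5 to 10.17, 10.10, 10.31 and 10.41 in RWDD4 clones 17, 24, 5 and 6. Its groups were only 0.014 apart, and adjusted p was 0.0169. INCENP, the scaffold of the complex, was 0.41 higher (SE 0.15, adjusted p 0.0470) with overlapping groups. Its call was lost when any clone other than control clone 5 was left out, at 0.30 to 0.46. It was also lost after quantile normalization (0.24), with array weights (0.33), with the span trend removed (0.34), after cyclic loess (0.42), and at 0.41 with an intensity trend in the variance or with all probe sets tested. RCC2 lay at -0.09 and AURKC, the third Aurora kinase, at -0.25. AURKC passed as lower without control clone 5, at -0.35, which made 1 fall in this list.

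Checkpoint partners of BUB1, BUB1B and TTK mostly rose, with 8 of 10 measured genes up and 1 down (median 1.49), against 25.1% and 21.6% of all genes. BUB3, which carries BUB1 and BUB1B to kinetochores, rose by 1.52 (SE 0.13) and MAD2L1, the MAD2 protein that binds CDC20, by 1.46 (SE 0.18). KNL1, the kinetochore scaffold that TTK phosphorylates, rose by 2.32, KNTC1 of the RZZ complex by 1.95 and SPDL1, which recruits dynein, by 1.79. MAD1L1, the anchor of MAD2 at kinetochores, fell by 0.41 (by 0.62 with the span trend removed), and MAD2L1BP, which helps to switch the checkpoint off, lay at -0.18. Among the genes of this list that passed, adjusted p values in the limma fit ran from 4.61e-05 for SKA3 to 0.0239 for TRIP13. Both rose and are named here for their p-values alone. MAD2L1BP passed as lower after quantile normalization, at -0.38.

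Of the AURKA activators and partners 5 of 12 were analysed, and 4 rose and 1 fell (median 1.96). TPX2 and BORA, its chief activators, were not analysed here. HMMR, a spindle pole protein, rose by 2.29, CKAP5, a microtubule polymerase at the poles, by 2.20, CEP192, which recruits AURKA to centrosomes, by 1.96 and CEP152 by 0.78. AJUBA fell by 0.47.

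Genes around PLK1 were mixed, with 7 of 11 up and 2 down (median 0.63). The docking partners CEP55 and PRC1 of the midbody and midzone rose by 1.89 and 1.68, and the cohesin subunit STAG2 by 1.83. PLK3, a stress-responsive sister kinase, fell by 0.63 and GOLGA2 of the Golgi by 0.35, while NUDC lay at -0.08 and FRY at -0.19. With the trend over gene span removed 4 of the 11 fell, NUDC (-0.25) and FRY (-0.44) among them, and 3405 of all 14884 genes did so. FRY was dim, at 3.82 to 4.22 over all clones, below the median of all values (4.92).

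Other mitotic kinases and the switches of CDK1 mostly rose, with 14 of 18 up and none down (median 1.21). CDK1, the master kinase of mitosis, rose by 1.85 (SE 0.21), its cyclins CCNA2 and CCNB2 by 2.06 and 1.98, and PBK, a kinase of dividing cells, by 2.13. ENSA, which feeds the MASTL switch, lay at 0.01 and the phosphatase gene CDC25A at -0.10. After quantile normalization 2 of the 18 fell, among them CDC25A at -0.27, and 1 fell with the span trend removed. Of all 14884 genes 3694 and 3405 fell in these settings.

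Most opposing phosphatases were not analysed here, as only 3 of 18 were among the genes with a single symbol. CDCA2, which targets a phosphatase to chromatin, rose by 2.34, CDC14B by 0.57 and CDC14A by 0.32. CDC14A lost its call when any clone other than control clone 3 was left out, at 0.24 to 0.35, after quantile normalization, at 0.30, and with all probe sets tested. With the mean of a gene's probe sets CDC14B was at 0.32. Only 1 of the 3 rose with the span trend removed, when CDC14A was at 0.05 and CDC14B at 0.29.

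In the anaphase-promoting complex and its effectors 12 of 20 measured genes rose and 2 fell (median 0.64). The subunits ANAPC1, CDC27 and CDC23 rose by 1.92, 1.65 and 1.42 (CDC27 by 0.82 with the mean of its probe sets), while ANAPC2 and ANAPC11, which form its catalytic core, fell by 0.61 and 0.49. ANAPC5 and ANAPC15 lay at 0.11 and 0.12. CDC20, the activator that the checkpoint holds back, rose by 0.56 (SE 0.14, adjusted p 0.00930), although its groups overlapped, with 10.90 in control clone 5 and 10.88 in RWDD4 clone 24. After quantile normalization 4 of the 20 fell, and 3694 of all 14884 genes did so.

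Among regulators of late cell cycle transcription 9 of 11 rose and 1 fell (median 0.70). FOXM1 rose by 0.61 (SE 0.15, adjusted p 0.00806), from 9.19 ± 0.33 to 9.80 ± 0.12 (SD, n = 4 each), a size near that of CDCA8 and CDC20 and below that of most checkpoint genes. MYBL2 lay at -0.23 (SE 0.11), with 10.27, 10.48, 10.12 and 10.18 in RWDD4 clones 17, 24, 5 and 6, and 10.56, 10.30, 10.54 and 10.56 in control clones 2, 3, 4 and 5. It passed as lower without RWDD4 clone 24 (-0.30), without control clone 3 (-0.29), after quantile normalization (-0.34) and with the span trend removed (-0.41). The pocket proteins RBL1 and RBL2 rose by 1.37 and 1.04 and the MuvB subunit LIN9 by 1.24, while the MuvB subunit LIN37 fell by 0.43, a call lost with the span trend removed (-0.26).

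Of the 4 other BIRC genes measured, survivin's relatives, 3 rose and none fell (median 1.09), with BIRC2 at 1.595, the giant ubiquitin enzyme BIRC6 at 1.498 and the caspase inhibitor XIAP at 0.68. BIRC7 lay at -0.21, and passed as lower after quantile normalization, at -0.27.

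Over all 9 lists 66 of 91 measured genes rose and 7 fell, against 25.1% and 21.6% of all genes, and the median difference was 0.78 against -0.08. These lists were chosen with earlier results known, so the shares describe them and support nothing further.

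**Figure D4:**
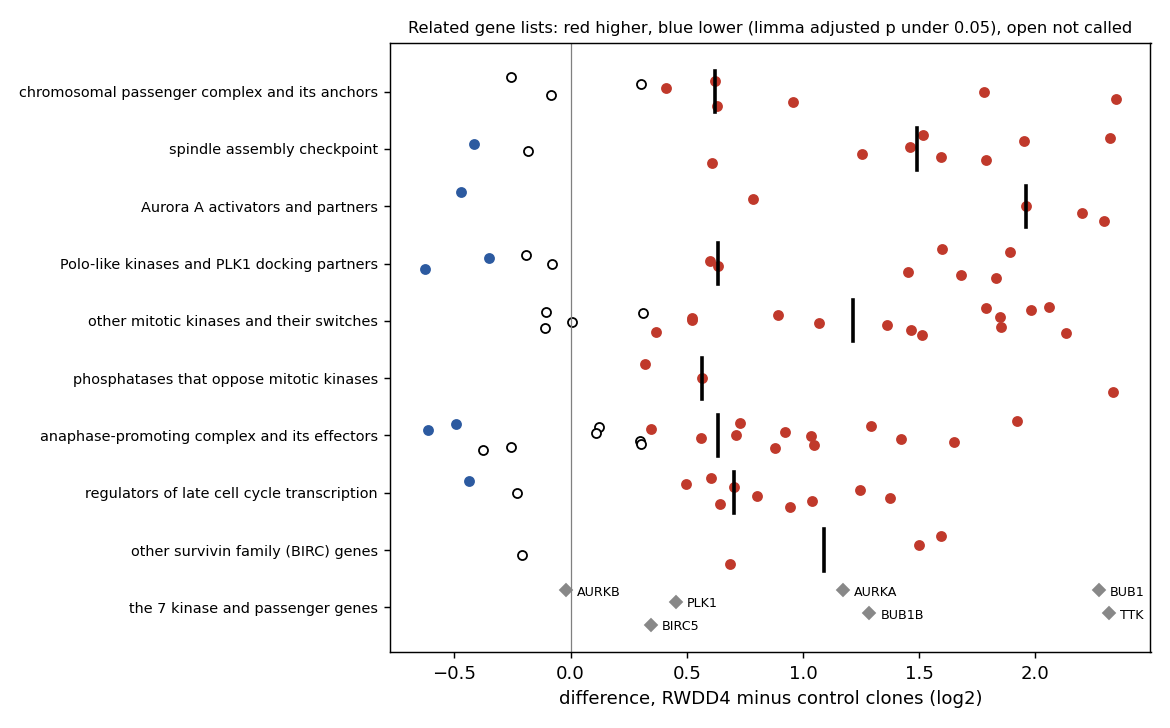
Difference in log2 expression, RWDD4 minus control clones, for the 91 genes of the 9 related lists (1 point per gene, red risen, blue fallen, open not past the limma test; black line, median of a list) and for the 7 kinase and passenger genes (grey). AURKB, BIRC5 and PLK1 lie at -0.02, 0.35 and 0.45, left of the medians of all 9 lists.

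The flat genes had the shortest genomic spans of the 7, measured from the RefSeq gene table (GRCh38.p14). AURKB spans 5.85 kb, BIRC5 11.4 kb and PLK1 11.5 kb, against 22.8 kb for AURKA, 37.9 kb for TTK, 40.5 kb for BUB1 and 60.1 kb for BUB1B. Between span and difference, Spearman's rho was 0.36 across all 14884 genes and 0.23 across the 91 list genes; the genes share the same 8 arrays and are not independent. In the span range of the flat genes, 7 of 15 list genes rose and 3 fell. Of all 1788 genes of that range 225 rose (12.6%) and 575 fell, so falls were the commoner direction there. The list genes of that range that rose were CCNA2 (7.44 kb, 2.06), CCNB1 (11.1 kb, 1.79), KIF20A (8.61 kb, 1.78), MAD2L1 (11.2 kb, 1.46), ANAPC13 (8.32 kb, 1.29), PTTG1 (6.89 kb, 0.88) and PLK2 (6.11 kb, 0.63). Those that fell were ANAPC11 (9.74 kb, -0.49), AJUBA (11.4 kb, -0.47) and LIN37 (5.94 kb, -0.43). All 10 are listed whatever their size, and CCNB1, ANAPC13, PTTG1 and PLK2 were picked after their values were seen.

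With each array's trend over span removed, the differences were 2.19 for TTK, 2.13 for BUB1, 1.16 for AURKA and 1.08 for BUB1B, and 0.57 for PLK1, 0.47 for BIRC5 and 0.16 for AURKB. In that fit 6 of the 7 passed as higher, PLK1 and BIRC5 included, against 23.8% of all genes, and only AURKB of the 3 flat genes did not pass. How much of the split goes with span was not tested.

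**Figure D5:**
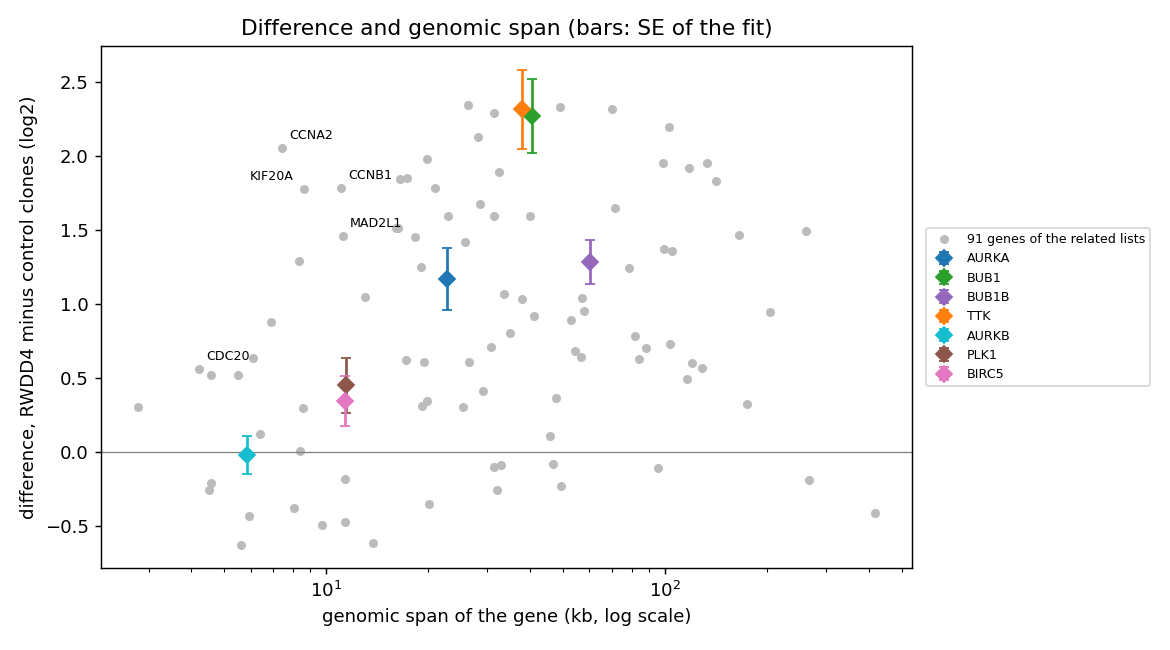
Difference in log2 expression, RWDD4 minus control clones, against genomic span on a log scale, for the 91 list genes (grey) and the 7 kinase and passenger genes (coloured, bars are the SE of the fit). AURKB, BIRC5 and PLK1 lie at short spans, between 5.85 and 11.5 kb, where 7 of the 15 list genes rose and 3 fell.

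Promoter letters were also set beside the differences of the list genes, of which 81 had an entry. A CHR match was found in 27 of them (33.3%), whose median difference was 1.25, against 0.58 in those without. CCAAT boxes were found in 42 (51.9%), with medians of 0.91 and 0.64. PLK1 and BUB1 held both motifs and were both higher on average, PLK1 at 0.45 below all of these medians and BUB1 at 2.27 above them. BUB1B, with a CHR match alone, lay near the median of genes with one. AURKB, with a CCAAT box alone, lay at -0.02, below all of them.

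A leading axis of the variation of the arrays within their groups was taken over all genes. Positions on that leading axis, which held 38.9% of the within-group variance, were -58.4 in control clone 2, between -24.4 and -12.2 for control clones 3, 4 and 5, and between 19.7 and 35.9 with RWDD4. The groups did not overlap on it, so the axis and the vector cannot be told apart. With the position as a covariate, the differences were 1.10 (SE 0.43) for TTK, 0.93 (SE 0.31) for BUB1, 0.73 (SE 0.27) for BUB1B and 0.41 (SE 0.39) for AURKA. PLK1 and BIRC5 were at 0.25 (SE 0.41) and 0.26 (SE 0.38) and AURKB at 0.13 (SE 0.28). None of the 7 passed there, as 1 of the 14884 genes did, which is 0.00672%.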

How the data were processed

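The authors deposited a table of log2 expression values for the 8 arrays. Partek and RMA are named, with no version, in the submitters' processing notes. Scan batches and genome build: not given in the sources used here. Of 53617 probe sets, 16098 had exactly 1 gene symbol, none had several and 37519 were not listed. They stood for 14884 genes, all found by gene ID in the RefSeq table (GRCh38.p14) used for symbols, spans and promoters. Each gene was read from its brightest probe set, by the mean of the 8 arrays. Dim probe sets were kept, and no arrays were identical.

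RWDD4 minus control clones was fitted over all genes in limma 3.58.1 (lmFit, then eBayes; R 4.3.3) with group as the only term, and two-sided p-values were adjusted by Benjamini-Hochberg. Rose and fell mean an adjusted p under 0.05. p-values measure the spread between these clones, and the number of arrays limits the precision. No value is an average over arrays of 1 clone. In data simulated for this comparison over 14884 genes, changes of 0.5, 1 and 2 log2 units were recovered in 36%, 90% and 100% of 50 genes each, and 9 of 165 calls were false. Far fewer genes were changed there than the 46.7% that passed in the data. Each gene was also drawn independently, whereas the arrays share a within-group axis, so these rates need not hold for the real comparison. Alternatives covered the variance model, probe sets, a level filter, 3 scalings, array weights, all probe sets, span, the within-group axis and each clone left out.

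The genes and lists were chosen with earlier results of these data known. In each list the genes named were up to 3 with the largest rise, 2 with the largest fall and 2 with the smallest difference. INCENP, CDCA8, TPX2, BORA, BUB3, MAD2L1, CDC20, CDK1, FOXM1 and MYBL2 were always named. For each of the 7 genes the 3 nearest profiles were named, leaving out LOC, LINC, MIR, SNOR and orf symbols. Genes said to be chosen after their values were seen fall outside these rules, as do those listed by lowest control clone.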

Additional observations from a re-analysis of the deposited data

Results flagged for a closer look

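In 126 groups of 4 clones (the 7 genes, RWDD4, the named partners and the averages of the 2 sets), 12 had a clone far from the other 3, where chance gives about 1 in 20. None of the 7 genes was among them. RWDD4 was low in RWDD4 clone 6, at 9.87. Low control clones were clone 2 for CKAP5 (7.27), ANAPC5 (9.46) and XIAP (5.66), clone 3 for MYBL2 (10.30) and clone 4 for BIRC7 (6.17). AJUBA was high in control clone 2, at 9.17. Among the RWDD4 clones SPDL1 was low in clone 17 (7.60), ENSA was high in clone 5 (9.11), RBL2 in clone 6 (8.15), and CDC14A (6.42) and BIRC2 (7.19) in clone 24.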

How the results depend on the processing

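The 4 higher genes kept their direction under every alternative run. Over the settings other than the within-group axis and the clones left out, TTK lay at 2.19 to 2.37, BUB1 at 2.09 to 2.32, BUB1B at 1.08 to 1.33, AURKA at 0.996 to 1.22, PLK1 at 0.38 to 0.57, BIRC5 at 0.25 to 0.47 and AURKB at -0.14 to 0.16. With single clones left out, the average of the higher genes was 1.57 to 1.89 and that of the flat genes 0.10 to 0.36. Of the 7 genes 4 to 6 passed, and 5 did so after median centring, where PLK1 lay at 0.50.

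With the position on the within-group axis as a covariate, on which the groups did not overlap, 0 genes rose and 1 fell of all genes, 0 of the 7 passed, and 0 list genes rose and 0 fell. AURKA was at 0.41, BUB1 at 0.93, BUB1B at 0.73 and TTK at 1.10, with an average of 0.79, RWDD4 lay at 1.88 and no longer passed, and INCENP turned to -0.019 (SE 0.30). After quantile normalization 14 of the 91 list genes fell, and 3694 of all 14884 genes did so. The cause was not tested. Calls in all genes were 3429 to 3980 up and 2200 to 3694 down over the other settings. No paired analysis was possible because the groups shared only 1 clone number.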
